A study of Mus musculus with 10 samples.

Results

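Cytochrome P450 families 1 to 3 were compared between the livers of wild-type mice and of mice without the histone variants macroH2A1 and macroH2A2. Members were the genes whose symbol is Cyp1, Cyp2 or Cyp3 followed directly by a letter, read from probe sets annotated to that symbol alone, without pseudogene symbols ending in -ps. This gave 58 genes on 61 probe sets, where 22180 genes in all had such a probe set. Cyp2c29, Cyp2c55 and Cyp2f2 had a second probe set, and a gene with several was represented by the one with the highest mean over the arrays. RefSeq lists 60 protein-coding genes of these families, and 57 of them were members. Cyp2c67, Cyp3a41a and Cyp3a41b occurred only on probe sets that carry several symbols, and the member Cyp2d13 is a transcribed pseudogene in that table.

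All mice were males of the strain 129/S6 (taconic), aged 2 months, fasted for about 16 h overnight and killed in mid-morning. The wild-type group had 5 livers, and so had the macroH2A1 macroH2A2 double knockout group. MacroH2A proteins are variants of histone H2A with a large non-histone domain. The labels name the liver as the tissue and describe no tissue-specific deletion. They do not say in so many words that each sample is a separate animal; if some are not, the p-values measure a spread that is partly technical.

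P450 enzymes of families 1 to 3 sit in the endoplasmic reticulum and oxidise drugs, pollutants, steroids and fatty acids, with electrons from P450 oxidoreductase and cytochrome b5. The liver holds most of them, and many are most abundant in the hepatocytes around the central vein. Foreign compounds induce them through the receptors Ahr, Car (Nr1i3) and Pxr (Nr1i2), while growth hormone pulses and clock-driven factors of the Dbp, Tef and Hlf group set sex differences and daily rhythms.

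Some of the largest differences lay in members with close relatives, so the DNA just upstream of Cyp2a5, Cyp3a11, Cyp3a44 and relatives of theirs is shown; Cyp3a41a has no probe set of its own, and no difference was measured for it alone. These are the 250 bases before the RefSeq start of each gene (assembly GRCm38.p6), on the strand of the gene and 5′ to 3′. They lie at chr7:26306942-26307191 (plus strand) for Cyp2a4, chr7:26835089-26835338 (plus) for Cyp2a5, chr5:145879855-145880104 (minus) for Cyp3a11, chr5:145805875-145806124 (minus) for Cyp3a44 and chr5:145720137-145720386 (minus) for Cyp3a41a. Capitals mark matches to CAAAGTCC, the letters of an HNF4-type element, and to TTATGNAA, the letters of a Dbp-type element, searched on both strands. The motifs were chosen after the windows had been seen.
Cyp2a4: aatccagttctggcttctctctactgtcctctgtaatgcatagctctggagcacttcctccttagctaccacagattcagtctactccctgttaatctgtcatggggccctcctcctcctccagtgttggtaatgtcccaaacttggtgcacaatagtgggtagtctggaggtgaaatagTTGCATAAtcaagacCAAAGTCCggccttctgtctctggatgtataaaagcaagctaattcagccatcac
Cyp2a5: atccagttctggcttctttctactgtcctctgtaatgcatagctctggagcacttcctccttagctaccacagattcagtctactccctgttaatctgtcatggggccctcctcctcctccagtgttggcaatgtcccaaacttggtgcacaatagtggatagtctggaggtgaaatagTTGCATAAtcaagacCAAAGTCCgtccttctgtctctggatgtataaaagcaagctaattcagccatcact
Cyp3a11: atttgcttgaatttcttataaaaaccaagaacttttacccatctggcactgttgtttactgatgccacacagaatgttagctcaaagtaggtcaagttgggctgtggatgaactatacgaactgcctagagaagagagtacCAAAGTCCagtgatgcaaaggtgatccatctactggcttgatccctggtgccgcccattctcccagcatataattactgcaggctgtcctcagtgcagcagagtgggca
Cyp3a44: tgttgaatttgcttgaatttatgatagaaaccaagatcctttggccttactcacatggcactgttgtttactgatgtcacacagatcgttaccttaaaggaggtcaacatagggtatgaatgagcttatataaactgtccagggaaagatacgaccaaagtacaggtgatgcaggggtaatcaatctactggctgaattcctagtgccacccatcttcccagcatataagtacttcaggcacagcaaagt
Cyp3a41a: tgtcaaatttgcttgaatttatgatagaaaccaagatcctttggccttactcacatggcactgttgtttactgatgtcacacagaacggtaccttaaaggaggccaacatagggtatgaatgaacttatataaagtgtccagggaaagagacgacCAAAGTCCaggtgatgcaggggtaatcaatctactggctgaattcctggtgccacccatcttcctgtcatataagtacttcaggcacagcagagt

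The windows of Cyp2a4 and Cyp2a5 were 97.6% identical, and both held both motifs, with the HNF4-type letters beginning 55 and 56 bases and the Dbp-type letters 70 and 71 bases before the start. Cyp3a41a and Cyp3a44 were 94.4% identical, but the HNF4-type letters, 95 bases before the start of Cyp3a41a, had no match in Cyp3a44. Cyp3a11 was 72.5% identical to Cyp3a44 and held the HNF4-type letters 109 bases before its start. CAAAGTCC was found in 10 of the 50 members that have a window (20%), against 1.2% of 32851 windows of the same length over all genes. The units differ in this and the following shares. A member counted once if any of its windows matched, while the windows over all genes were counted singly. All 10 members lie in the Cyp2a, Cyp2c and Cyp3a subfamilies, where relatives share upstream sequence, so their matches are not independent. TTATGNAA was found in 5 of the 50 (10%), namely Cyp2a4, Cyp2a5, Cyp2b10, Cyp2b19 and Cyp2b23, against 3.07% of all windows. All 5 are Cyp2a or Cyp2b genes, and the Cyp2a4 and Cyp2a5 windows are nearly the same, so these matches are not independent either. Other motifs searched were less common in members than in all windows: GCGTG, the Ahr core, in 9 of 50 (18%) against 28.2%, and TTCNNNGAA, the STAT5 letters, in 2 of 50 (4%) against 7.02%. TATAAA was in 22 of 50 (44%) against 12.4%. Of the 10 members with CAAAGTCC 6 had a lower and 4 a higher mean in double knockout livers, and of the 5 with TTATGNAA 4 had a lower and 1 a higher mean.

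Levels are log2 expression values per probe set, so a difference of 1 is a doubling. Since probes differ in response, a higher signal was not read as a higher abundance of 1 gene than of another. Mean levels were compared between probe sets to choose a gene's probe set, the members to print and those above background. Olfactory receptor genes, foreign to liver, served as the guide to background: their 1108 probe sets had a median of 4.63 and a 95th percentile of 6.54. By that guide 38 members lay above background and 20 did not. The hepatocyte was well represented, with 11 measured hepatocyte markers averaging 12.75 to 12.80 in wild-type and 12.74 to 12.77 in double knockout arrays, and 0 of them called. Macroh2a1, at 9.51 to 9.66 in wild-type arrays, was at 9.02 to 9.18 in double knockout arrays. Macroh2a2 was below the background guide in both group means. Array medians lay between 6.43 and 6.46, and correlations between arrays between 0.989 and 0.995.

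Of the 58 members 1 passed the test between double knockout and wild-type livers. This was Cyp2d22, a member of the subfamily of human CYP2D6. It fell by 0.23 on the log2 scale. A member was called at a limma adjusted p under 0.05 over all 25335 probe sets tested. That test called 0.884% of all probe sets, and 1 of 58 members. At an unadjusted p under 0.05 there were 14 members, 6 higher and 8 lower, against 15.1% of all probe sets. Means were lower in double knockout livers for 41 members and higher for 17, with a median difference of -0.06 beside -0.003 over all probe sets tested. For 30 members the difference was under 0.1 in size. In bulk liver, fewer cells of a type and less RNA per cell cannot be told apart.

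**Figure D1:**
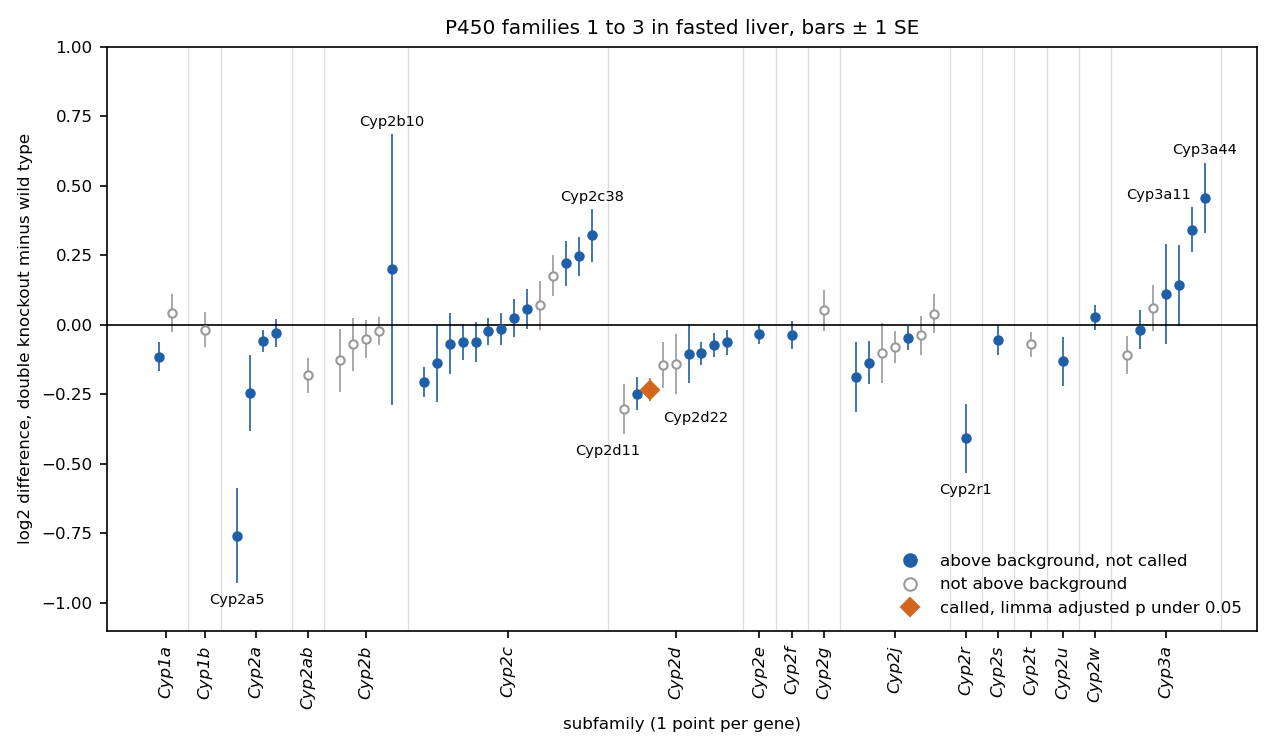
Log2 difference (double knockout minus wild type, n = 5 each) of the 58 members by subfamily, with bars of 1 SE from limma. Orange marks Cyp2d22, the called member; open circles are members not above background. All 9 Cyp2d points lie below 0, from -0.30 to -0.06, and Cyp3a11 and Cyp3a44 stand at 0.34 and 0.46.

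The 9 Cyp2d members, among them the pseudogene Cyp2d13, lay on 1 side of 0. In double knockout livers the means of all 9 members, 6 of them above background, were lower, with differences of -0.30 to -0.06 and a median of -0.14. The direction held for all 9 in each of the 10 fits that left out 1 array. With the mean of macrophage markers as a covariate it held for 8 of 9. It also held for all 9 under quantile normalization applied again and under median centring. Array medians lay between 6.43 and 6.46 beforehand, so median centring had little room to change a sign. The median difference was -0.15 with quantile normalization and -0.14 with median centring. Cyp2d22 was the called one. In 3 of the 9 every double knockout array was below every wild-type array, as in 2.15% of all probe sets tested. The pseudogene Cyp2d37-ps, left out of the members by its symbol, was above background with a mean of 11.13. It differed by -0.001 (limma adjusted p = 0.997). The 9 members are relatives, and how far their probes read each other's transcripts was not tested.

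Cyp2d22 stood at 12.73, 12.66, 12.77, 12.69 and 12.70 in wild-type replicates 1 to 5. The double knockout replicates stood at 12.47, 12.50, 12.57, 12.46 and 12.40. Every double knockout array was below every wild-type array, and the range within a group was smaller than the gap of means. The means were 12.71 ± 0.04 and 12.48 ± 0.06 (SD, n = 5 each), 1.17-fold lower in the double knockout (SE 0.04 on the log2 scale, limma adjusted p = 0.0312, 95% interval of the log2 difference -0.33 to -0.14). The call rests on the full set of arrays: leaving out 1 array kept it in 3 of 10 fits, and the adjusted p ranged from 0.0349 to 0.0769. It was lost without wild-type replicates 1, 2, 3 or 4 and without double knockout replicates 2, 4 or 5, while the difference stayed between -0.25 and -0.21.

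Cyp2d13, the transcribed pseudogene, had wild-type levels of 12.34, 12.29, 12.07, 12.17 and 12.12 and double knockout levels of 12.01, 12.00, 11.85, 11.92 and 11.97. The groups did not overlap, and the difference was -0.25 (SE 0.06, limma adjusted p = 0.0751). Pseudogenes share sequence with their parent genes, and how far its probes also read Cyp2d transcripts was not tested.

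Cyp2d9, a male-predominant steroid hydroxylase, was at 13.05, 13.02, 13.13, 12.97 and 13.08 in wild-type and at 12.97, 12.97, 12.96, 12.91 and 12.94 in double knockout arrays. The groups touched without overlapping, with a difference of -0.10 (SE 0.04, limma adjusted p = 0.260). Cyp2d26 had a difference of -0.07 (SE 0.04, limma adjusted p = 0.495) with overlapping groups. The other 5 members, Cyp2d10, Cyp2d11, Cyp2d12, Cyp2d34 and Cyp2d40, had differences of -0.30 to -0.06 and limma adjusted p-values of 0.137 or more. The largest in size of these was that of Cyp2d11, not above background.

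Groups that did not overlap were found for 5 members, all lower in the double knockout: Cyp2d22, Cyp2d13, Cyp2d9, Cyp2c23 and Cyp2r1. Over all probe sets tested 2.15% had every double knockout array below every wild-type array, and 1.75% had every one above. No member was in the second class.

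Cyp2r1, the main microsomal vitamin D hydroxylase of liver, was at 8.40, 7.83, 7.83, 8.10 and 7.68 in wild-type arrays. In double knockout arrays it was at 7.63, 7.64, 7.68, 7.58 and 7.28. The groups met at 7.68 without overlapping, and the difference was -0.41 (SE 0.12, limma adjusted p = 0.149).

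Cyp2c23, an arachidonic acid epoxygenase, was at 12.94, 12.91, 12.93, 13.06 and 12.92 in wild-type arrays and at 12.81, 12.86, 12.68, 12.80 and 12.60 in double knockout arrays. Its difference was -0.21 (SE 0.06, limma adjusted p = 0.108).

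**Figure D2:**
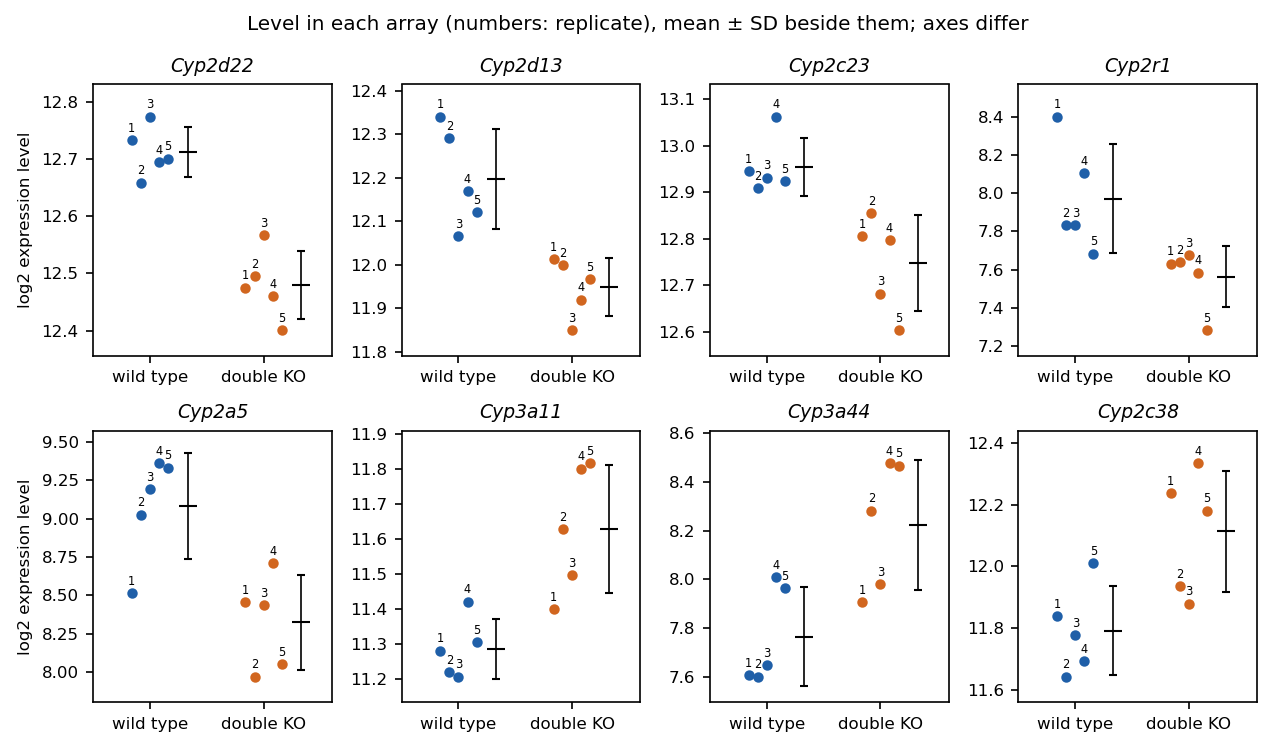
Log2 expression level of 8 members in each array, numbered by replicate, with the group mean and SD beside the points; each panel has its own axis, which does not start at 0. Cyp2d22, Cyp2d13, Cyp2c23 and Cyp2r1 show groups without overlap, while in Cyp2a5, Cyp3a11, Cyp3a44 and Cyp2c38 the groups meet.

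The subfamily Cyp2a had the member with the largest difference of the 58. In double knockout livers the mean was lower for all 4 members, by a median log2 difference of -0.15. This held for all 4 in each fit without 1 array, and for 3 of 4 with macrophage marker level as a covariate. No member was called.

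Cyp2a5, which oxidises coumarin and nicotine, was at 8.51, 9.02, 9.19, 9.36 and 9.33 in wild-type replicates 1 to 5. In double knockout replicates it was at 8.46, 7.97, 8.44, 8.71 and 8.05. Wild-type replicate 1 lay within the double knockout range, and the other 4 wild-type arrays lay above all 5 double knockout arrays. The means were 9.08 ± 0.34 and 8.33 ± 0.31 (SD, n = 5 each), a 1.69-fold lower mean that missed the threshold (log2 difference -0.76, SE 0.17, limma adjusted p = 0.0664). Without wild-type replicate 1 the difference was -0.90 and was called (limma adjusted p = 0.0198).

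Cyp2a4, a female-predominant steroid hydroxylase whose upstream window is nearly that of Cyp2a5, was at 10.23, 10.74, 10.76, 10.94 and 10.59 in wild-type arrays. It was at 10.43, 10.62, 10.11, 10.68 and 10.20 in double knockout arrays. The groups overlapped broadly, with a difference of -0.25 (SE 0.14, limma adjusted p = 0.444). Wild-type replicate 1 was the lowest wild-type array for this gene too. Whether the differences of Cyp2a4 and Cyp2a5 themselves differ was not tested. Cyp2a12, a steroid and bile acid hydroxylase, differed by -0.06 (SE 0.04, limma adjusted p = 0.534), and Cyp2a22 by -0.03 (limma adjusted p = 0.861).

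The Cyp3a subfamily leaned the other way. In double knockout livers 5 of its 7 members had the higher mean. Above background were 5 of the 7, and 4 of those had the higher mean. The median difference of the 7 was 0.11, and 0 were called. When 1 array was left out, the median was lowest at 0.06 with wild-type replicate 4 absent and highest at 0.23 with double knockout replicate 3 absent. With macrophage marker level as a covariate 4 of 7 were higher, with a median of 0.02, and without the 4 arrays of highest pancreas marker level 3 of 7 were. The higher means were largest in Cyp3a11, the main inducible Cyp3a of mouse liver, and Cyp3a44, a female-predominant gene next to it.

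Cyp3a11 was at 11.28, 11.22, 11.21, 11.42 and 11.30 in wild-type replicates 1 to 5 and at 11.40, 11.63, 11.50, 11.80 and 11.82 in the double knockout replicates. The groups met only at wild-type replicate 4 and double knockout replicate 1. The means were 11.29 ± 0.09 and 11.63 ± 0.18 (SD, n = 5 each), a difference of 0.34 or 1.27-fold (SE 0.08, limma adjusted p = 0.0751). Without double knockout replicate 1 it was 0.40 and called (limma adjusted p = 0.0391).

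Cyp3a44 was at 7.61, 7.60, 7.65, 8.01 and 7.96 in wild-type arrays and at 7.91, 8.28, 7.98, 8.48 and 8.47 in double knockout arrays. Replicates 4 and 5 were the highest of either group, and the difference was 0.46 (SE 0.13, limma adjusted p = 0.1196). A probe set annotated to Cyp3a11, Cyp3a41a, Cyp3a41b and Cyp3a44 together was at 11.88, 11.91, 12.07, 12.07 and 12.12 in wild-type and at 12.18, 12.35, 12.17, 12.29 and 12.41 in double knockout arrays. These groups did not overlap, and the difference was 0.27 (SE 0.06, limma adjusted p = 0.0767). A second probe set of the same 4 symbols differed by 0.26 (SE 0.07, limma adjusted p = 0.1001). These probe sets read several genes at once, and how much of the Cyp3a44 signal comes from its relatives was not tested.

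Cyp3a25, a liver Cyp3a, was at 11.28, 11.52, 11.23, 10.97 and 10.95 in wild-type and at 11.50, 11.44, 10.56, 11.40 and 11.59 in double knockout arrays. Double knockout replicate 3 was the lowest of the 10 arrays, the other double knockout arrays lay between 11.40 and 11.59, and the difference was 0.11 (SE 0.18, limma adjusted p = 0.838). It was 0.29 without double knockout replicate 3, 0.04 without double knockout replicate 5 and between these values without any other array, and was not called in any of these fits. Cyp3a13 differed by -0.02 (SE 0.07, limma adjusted p = 0.944). Cyp3a16, Cyp3a57 and Cyp3a59 had differences of -0.11 to 0.14.

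The Cyp2c subfamily, the largest with 14 members, split evenly into 7 higher and 7 lower means, with a median of 0.005. Above background were 12 members of the subfamily, with 5 higher and 7 lower means. Of its 5 members at an unadjusted p under 0.05, 4 were higher and 1, Cyp2c23, was lower; 0 were called. The higher ones above background were Cyp2c37, Cyp2c38 and Cyp2c39, which oxidise arachidonic acid; Cyp2c39 also hydroxylates retinoic acid.

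Cyp2c38 was at 11.84, 11.64, 11.78, 11.69 and 12.01 in wild-type and at 12.24, 11.94, 11.88, 12.34 and 12.18 in double knockout arrays. Wild-type replicate 5 overlapped double knockout replicates 2 and 3, and the difference was 0.32 (SE 0.10, limma adjusted p = 0.141). Cyp2c39 was at 7.04, 6.90, 6.95, 6.81 and 7.03 against 7.27, 7.13, 6.99, 7.36 and 7.22, a difference of 0.25 (SE 0.07, limma adjusted p = 0.126). In both genes double knockout replicate 3 was the lowest of its group. Cyp2c37 was at 11.02, 10.98, 10.96, 10.72 and 11.06 against 10.94, 11.23, 11.10, 11.32 and 11.26, a difference of 0.22 (SE 0.08, limma adjusted p = 0.222).

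Cyp2c29, a Car-inducible arachidonic acid epoxygenase, differed by 0.02 (SE 0.07, limma adjusted p = 0.917). Cyp2c70, which makes muricholic acids from chenodeoxycholic acid, differed by -0.07 (SE 0.11, limma adjusted p = 0.839). The second probe set of Cyp2c55, not above background, was 0.28 higher in the double knockout, while the first, above it, differed by -0.02. The other 8 members had differences of -0.14 to 0.18, the highest that of Cyp2c66, not above background.

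No member of the lists of Car, Pxr and Ahr targets was called. Cyp2b10, the classical Car target, was at 7.31, 8.68, 8.08, 8.55 and 7.67 in wild-type and at 7.95, 6.71, 8.67, 9.98 and 7.98 in double knockout arrays. Double knockout replicates 4 and 2 were the highest and the lowest of the 10, and the difference of 0.20 (SE 0.49, limma adjusted p = 0.900) became -0.23 without replicate 4. The 95% interval of the difference, -0.86 to 1.26, leaves a change of more than 2-fold unresolved. Its SD over arrays was the largest of the members above background. Cyp2b9 and Cyp2b13, female-predominant, were not above background in these males, at means of 5.03 and 4.96 and of 4.66 and 4.64. Of the 5 Cyp2b members 4 had lower means and 0 were called. The 4 lower ones were not above background, and Cyp2b10, the 1 member above it, had the higher mean.

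Cyp1a2, the caffeine-oxidising Ahr target, was at 12.76, 12.93, 12.86, 12.79 and 12.92 in wild-type and at 12.80, 12.62, 12.81, 12.79 and 12.68 in double knockout arrays, a difference of -0.11 (SE 0.05, limma adjusted p = 0.332). Cyp1a1 and Cyp1b1, targets of the same receptor, lay below the background guide, with differences of 0.04 and -0.02. The Ahr list of 3 members had 0 calls, and the list of 11 Car and Pxr-inducible members had 5 higher and 6 lower means and 0 calls, with differences from -0.76 (Cyp2a5) to 0.34 (Cyp3a11). Of 8 measured female-predominant members 3 were higher and 5 lower, with Cyp3a44 and Cyp2a4 at opposite ends. Above background were 5 of the 8, while Cyp2b9, Cyp2b13 and Cyp3a16 were not.

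Cyp2e1, which oxidises ethanol and acetone and is known to be high in fasting, was at 14.10, 14.11, 14.11, 14.08 and 14.06 in wild-type and at 14.06, 14.03, 14.05, 14.06 and 14.09 in double knockout arrays. The difference was -0.03 (SE 0.03, limma adjusted p = 0.727), with a 95% interval of -0.11 to 0.04. Its mean of 14.07 is near the highest value in the table, 14.37, and whether its probes were saturated was not tested. Cyp2f2, a naphthalene oxidase of periportal hepatocytes, differed by -0.03 (SE 0.05, limma adjusted p = 0.818), and its second probe set by -0.01. Cyp2j5, an epoxygenase, differed by -0.05 (SE 0.04, limma adjusted p = 0.689), and 6 of 7 Cyp2j members had lower means, by up to 0.19 for Cyp2j9. Above background were 3 of these 7, all 3 with lower means. Cyp2u1, a fatty acid hydroxylase, differed by -0.13 (SE 0.09, limma adjusted p = 0.536). Of the remaining single-gene subfamilies, Cyp2ab1, Cyp2s1 and Cyp2t4 had lower and Cyp2g1 and Cyp2w1 higher means, and 0 were called. Among these genes Cyp2s1 and Cyp2w1 were above background, and the others were not.

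Among the 38 members above background, 27 had lower and 11 higher means. When only the 14078 probe sets above background were tested, 4 of these 38 members were called, Cyp2d22, Cyp2d13 and Cyp2a5 lower and Cyp3a11 higher, beside 2.68% of all probe sets in that fit. The SD of the median member above background was 0.12.

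**Figure D3:**
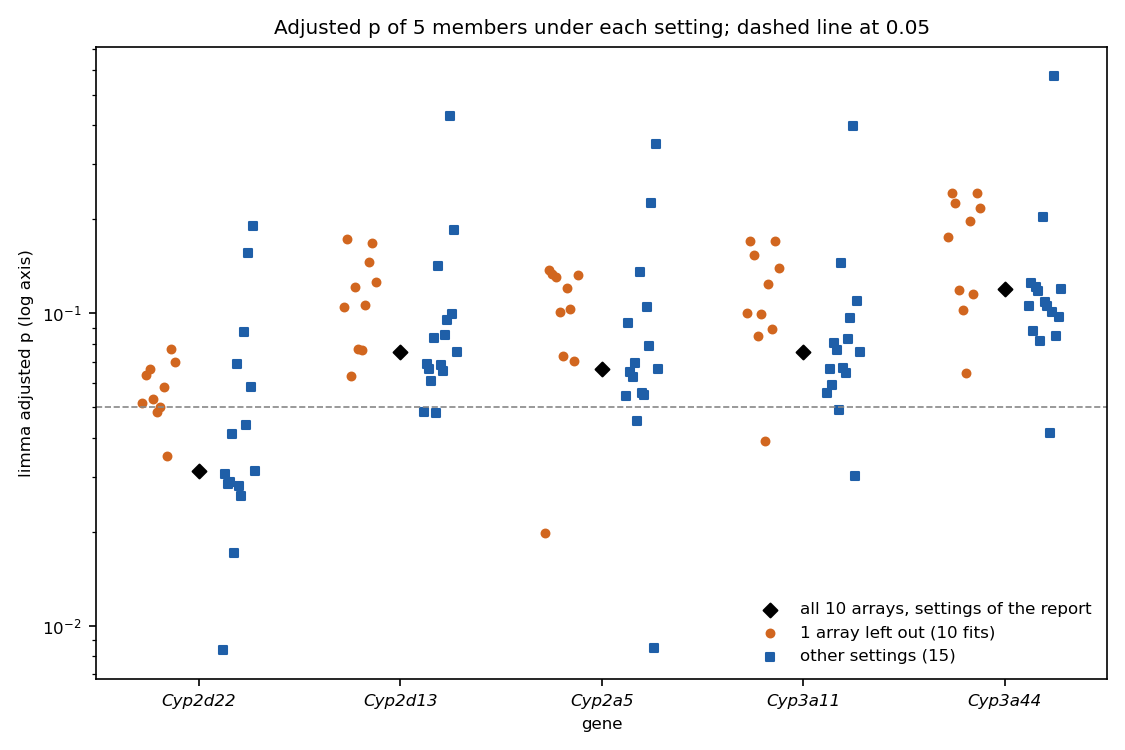
Limma adjusted p (log axis) of 5 members with all 10 arrays (black), with 1 array left out (orange) and under 15 other settings (blue); the dashed line is 0.05. Cyp2d22 is the member whose black point lies below the line, and most of its orange points lie just above it.

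The 4 pairs of members with the highest correlation from liver to liver, within the groups, were neighbours on a chromosome. None of these pairs passed adjustment. Deviations of each array from its group mean were correlated for the 703 pairs of the 38 members above background. In 4 pairs r was at least 0.90, and each was a pair of adjacent genes in the RefSeq order of protein-coding genes. That order was looked up only for these 4 pairs and for Cyp2a4 with Cyp2a5. Whether adjacent members in general were more alike than others was not tested. The strongest was Cyp3a11 with Cyp3a44, with Pearson's r = 0.93 (exact permutation p = 0.000694) and Spearman's rho = 0.95 (exact permutation p = 0.00396), and r = 0.89 without the 2 arrays farthest from the median. For Cyp2c38 with Cyp2c39 r was 0.90 (exact permutation p = 0.00118) and rho 0.89 (exact permutation p = 0.00229), with r = 0.83 without the 2 farthest arrays. Cyp2c40 with Cyp2c68 had r = 0.90 (exact permutation p = 0.00257) and rho = 0.87 (exact permutation p = 0.00444), and 0.73 without 2 arrays. Cyp2c37 with Cyp2c54 had r = 0.91 (exact permutation p = 0.00333) and rho = 0.70 (exact permutation p = 0.0426), and 0.64 without 2 arrays. After Benjamini-Hochberg adjustment over 703 pairs none passed; the lowest adjusted p was 0.415 for Pearson's r, and 39 pairs had an unadjusted exact permutation p under 0.05. The median r was 0.17 for the 100 pairs within a subfamily and 0.02 for the others. Cyp2a4 with Cyp2a5, which 7 protein-coding genes separate, had r = 0.54 (exact permutation p = 0.131) and rho = 0.50 (exact permutation p = 0.172), with 0.38 without 2 arrays. Relatives share sequence as well as position, so signal shared through the probes cannot be told apart from shared expression.

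**Figure D4:**
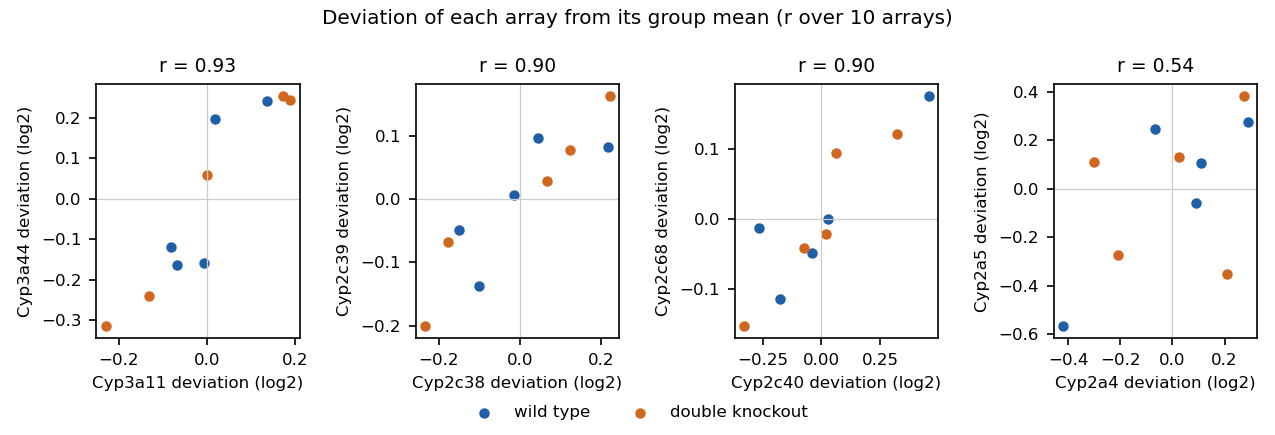
Deviation of each array from its group mean on the log2 scale for 4 pairs of members, blue for wild type and orange for double knockout. The points of the adjacent pairs Cyp3a11 with Cyp3a44, Cyp2c38 with Cyp2c39 and Cyp2c40 with Cyp2c68 follow a rising line with r of 0.90 or more, while those of Cyp2a4 with Cyp2a5 scatter (r = 0.54).

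The partners that P450 enzymes need were not called. Of 17 measured genes for electron transfer, haem synthesis and haem breakdown 6 had higher and 11 lower means. Hmox1, the inducible haem oxygenase, was at 8.11, 8.20, 8.20, 9.07 and 8.47 in wild-type and at 9.04, 8.82, 8.95, 9.13 and 8.88 in double knockout arrays. Apart from wild-type replicate 4, every wild-type array lay below the double knockout arrays, and the difference was 0.56 (SE 0.16, limma adjusted p = 0.1196). Cyb5r3, cytochrome b5 reductase, differed by -0.18 (SE 0.05, limma adjusted p = 0.134), Pgrmc2 by -0.11 (limma adjusted p = 0.256) and Blvrb, a biliverdin reductase, by 0.14 (limma adjusted p = 0.185). Por, the oxidoreductase itself, had no probe set of its own here.

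Of the 27 measured regulators of xenobiotic metabolism and hepatocyte identity, 20 had lower and 7 higher means, and 1 was called. Rxrg, a retinoid X receptor, was at 7.92, 8.00, 7.78, 7.91 and 7.95 in wild-type and at 7.68, 7.69, 7.68, 7.72 and 7.65 in double knockout arrays, without overlap. It fell by 0.23 (SE 0.05, limma adjusted p = 0.0402), a call kept in 1 of 10 fits that left out 1 array, the one without wild-type replicate 3. The Rxrg call was also lost with the macrophage marker covariate (limma adjusted p = 0.268), the pancreas marker covariate (0.0584), the replicate block (0.117) and all rows tested (0.0821), without both replicates 1 (0.0741) and without the 4 arrays of highest pancreas marker level (0.242). Calls over all probe sets in these fits are given in the closing section. Rxra, the retinoid X receptor usually dominant in hepatocytes, differed by 0.04 (limma adjusted p = 0.694). Nr1i3, the receptor Car, was at 12.71, 12.72, 12.65, 12.39 and 12.84 in wild-type and at 12.49, 12.46, 12.49, 12.39 and 12.36 in double knockout arrays. Wild-type replicate 4 lay in the double knockout range, and the difference was -0.22 (SE 0.07, limma adjusted p = 0.172). Pxr (Nr1i2) and Ahr differed by -0.02 and -0.05.

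Dbp, the clock-driven factor, was at 8.63, 8.64, 8.69, 8.77 and 8.53 in wild-type and at 8.51, 8.45, 8.45, 8.30 and 8.20 in double knockout arrays. The groups did not overlap, and the difference was -0.27 (SE 0.07, limma adjusted p = 0.0837). Its relatives Tef and Hlf, named after their values were seen, differed by -0.25 (limma adjusted p = 0.235) and -0.17 (limma adjusted p = 0.221). Cebpa, a hepatocyte factor, differed by -0.26 (SE 0.08, limma adjusted p = 0.165).

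Growth hormone signalling sets the sex bias of many members. Of 17 measured genes of this list 7 had higher and 10 lower means, and Ghr, the growth hormone receptor, was called. It was at 10.50, 10.43, 10.40, 10.52 and 10.38 in wild-type and at 10.24, 10.23, 10.14, 10.07 and 10.07 in double knockout arrays. The groups did not overlap, and Ghr fell by 0.30 (SE 0.05, limma adjusted p = 0.0212), a call kept in 7 of 10 fits without 1 array and lost without wild-type replicate 2 and double knockout replicates 4 or 5. The call was also lost with the macrophage marker covariate (limma adjusted p = 0.103) and with the replicate block (0.0736). It was lost too with all rows tested (0.0563) and without the 4 arrays of highest pancreas marker level (0.0633). Calls over all probe sets in these fits of Ghr are given in the closing section. Jak2, the kinase bound to this receptor, differed by -0.17 (limma adjusted p = 0.1996), Trim24 by 0.49 (limma adjusted p = 0.108) and Rsl1, a repressor of male-type liver genes, by -0.41 (limma adjusted p = 0.215) at a level not above background. Of genes downstream of the receptor, Stat5a, Stat5b, Igf1, Igfals and Cish differed by -0.06, -0.07, -0.01, -0.09 and 0.04, and none was called. Socs2, a feedback inhibitor of the pathway, had the highest difference of the list. Socs2, named after its values were seen, was at 9.20, 9.75, 10.68, 10.03 and 10.18 in wild-type and at 10.32, 11.71, 10.98, 10.40 and 10.01 in double knockout arrays. The groups overlapped, and its difference of 0.71 was not called (SE 0.32, limma adjusted p = 0.314).

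**Figure D5:**
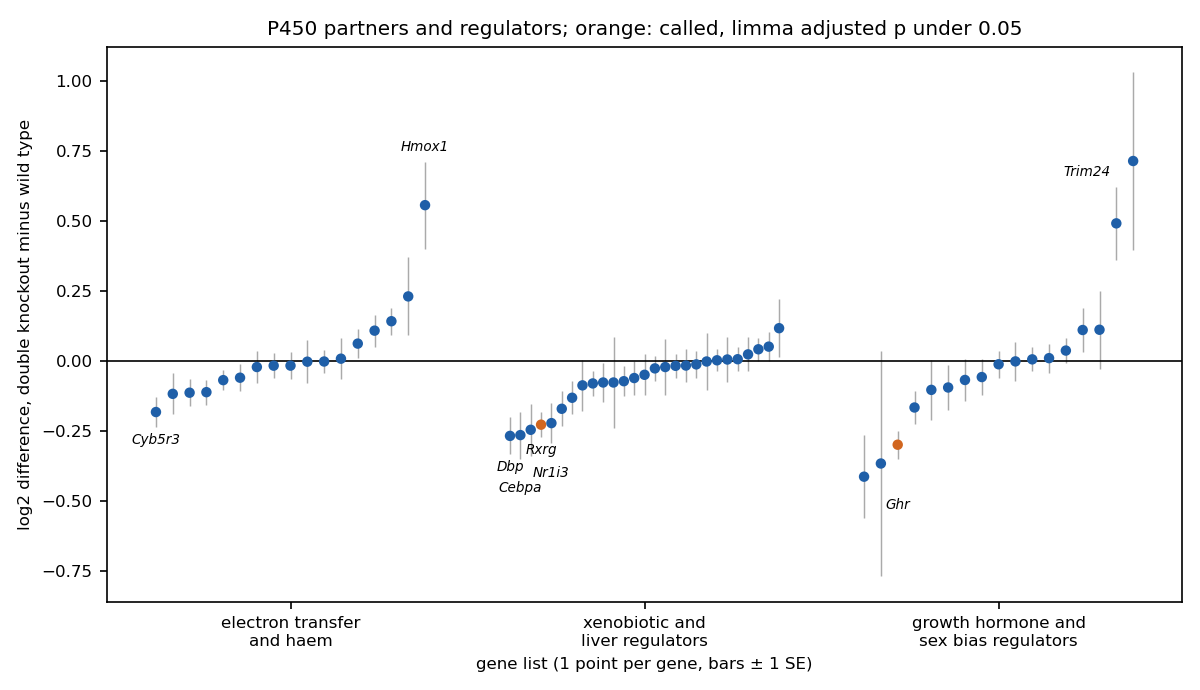
Log2 difference (double knockout minus wild type, n = 5 each) of measured genes of 3 lists, with bars of 1 SE from limma. The called genes, in orange, are Rxrg at -0.23 and Ghr at -0.30; Hmox1 at 0.56 and Trim24 at 0.49 were not called.

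Markers of other cell types were examined beside these results. All 15 markers of Kupffer cells and macrophages had higher means in double knockout livers; Cd163 and Marco were called, and the mean over the list was 8.93 to 9.23 in wild-type and 9.15 to 9.46 in double knockout arrays. With that mean as a covariate Cyp2d22 differed by -0.26 and was not called (limma adjusted p = 0.156). That fit called 17 of 25335 probe sets in all, against 224 without the covariate. The list mean of 11 pancreas markers spanned 5.97 to 10.61 in wild-type and 5.98 to 8.56 in double knockout arrays, highest in wild-type replicates 4 and 5 and double knockout replicates 1 and 2. Without those 4 arrays Cyp2d22 differed by -0.25 (limma adjusted p = 0.190). Pericentral hepatocyte markers, whose zone holds many P450 enzymes, had 5 of 11 higher means with list means of 10.37 to 10.55 in wild-type and 10.39 to 10.61 in double knockout arrays, and Rhbg, an ammonium transporter, was called at 0.58 (limma adjusted p = 0.0279). Periportal markers had 2 of 8 higher means and 0 calls. Cholangiocyte markers had 5 of 6 higher means with Krt23 called, and endothelial markers 7 of 10 with 0 calls. The part of these cell types in the P450 differences was not tested beyond the fits given here.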

How the data were processed

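Expression in 10 livers was measured on Affymetrix arrays, and the deposited table of log2 values per probe set was used as the authors left it; per the submitters' processing notes it came from Affymetrix Expression Console. For that program the summarisation, normalization and version were not given in the sources used here. Labelled cDNA was made from total RNA with the Ambion WT Expression Kit, per the labels' protocols. Scanner files were not analysed here, so the number of arrays limits the precision.

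Of 41345 probe sets, the 25335 with at least 1 gene symbol were fitted with group alone in limma (version 3.58.1, R version 4.3.3; functions lmFit and eBayes, two-sided tests). Benjamini-Hochberg adjustment covered all of them. Genes were named from the 23521 probe sets with 1 symbol. All 58 members matched RefSeq. Upstream windows and gene order came from RefSeq tables of GRCm38.p6. Cyp2d22, Cyp2c23, Cyp2u1, Cyp2d34, Cyp2d13, Cyp2g1, Cyp2d12 and Cyp2c54 had no window.

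Values were given for called members, members whose groups did not overlap and the 10 of highest mean. They were also given for the 5 largest rises and 5 largest falls above background and for a reference list. Of other genes, those called and up to 4 of lowest p per list were given. Among the regulators, Rxra, Nr1i2, Ahr, Tef, Hlf, Stat5a, Stat5b, Igf1, Igfals, Cish and Socs2 were given outside this rule. The members and lists were chosen with earlier results of these data known. The fit was tested on simulated data with independent normal noise in each probe set, so variation shared between probe sets was not simulated. With 50 probe sets changed at each size, it called 58% at a log2 size of 0.3 and 76% at 0.5. At sizes of 1.0 and 1.5 it called 100% and 98%. Of its calls 4.05% were false. Pairs were tested by exact permutation of arrays within groups (14400 permutations, two-sided), an addition made after the data were seen. Alternatives are listed in the closing section.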

Additional observations from a re-analysis of the deposited data

Results flagged for a closer look

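In 4 of 56 groups of 5 arrays, over the 28 named members, 1 array stood apart from the others of its group by Dixon's ratio of its gap to the nearest array over the whole range; chance gives about 1 in 20 groups. Cyp3a25 in double knockout replicate 3 was at 10.56, with the others at 11.40 to 11.59 (ratio 0.815). Cyp2r1 in double knockout replicate 5 was at 7.28, with the others at 7.58 to 7.68 (ratio 0.764). Cyp2c23 in wild-type replicate 4 was at 13.06, with the others at 12.91 to 12.94 (ratio 0.764). Cyp2f2 in double knockout replicate 5 was at 13.28, with the others at 13.35 to 13.38 (ratio 0.728).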

How the results depend on the processing

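The report calls 1 member, 0 higher and 1 lower. The robust option, array weights, quantile normalization applied again, median centring, testing only probe sets with 1 symbol, other choices of a gene's probe set and a pancreas marker covariate gave these counts too. An intensity trend called 2, both lower (Cyp2d22 and Cyp2d13), the filter on low levels 4 (1 higher and 3 lower), and testing all 41345 rows 0. The labels do not say that replicate numbers shared by the groups pair the samples. Correlations of deviations between same-numbered arrays were -0.48, -0.31, 0.13, -0.09 and -0.13. They were not compared with those of other arrays, so pairing was not tested. With the replicate block 1 member was called higher (Cyp3a44, limma adjusted p = 0.0414) and 0 lower. The macrophage covariate called 0. Thresholds of 0.10 and 0.01 gave 4 (1 higher, 3 lower) and 0. Settings chosen after seeing the data gave 2 (1 higher) without both replicates 1, where Cyp2a5 (-0.93) and Cyp3a11 (0.40) passed, and 0 without the 4 arrays highest in pancreas markers. Leaving out 1 array gave 0 to 2 members, 0 to 1 higher and 0 to 1 lower. Counts over all probe sets moved too. The report's fit called 224 of 25335, the intensity trend 291, the pancreas covariate 215, the block 76 and the macrophage covariate 17. Without both replicates 1 there were 613 (460 higher), without the 4 arrays 68, and without 1 array 64 to 253. Testing all 41345 rows called 75, and the filter on low levels 377 of 14078. Whether the members moved beyond this was not tested.

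Cyp2d22 kept its direction but was not called with all rows tested (-0.23, adjusted p = 0.0688), the replicate block (-0.23, 0.0873), the macrophage covariate (-0.26, 0.156), both replicates 1 out (-0.23, 0.0581) or the 4 arrays out (-0.25, 0.190), and ranged from -0.25 to -0.21 without 1 array. Of 25 alternatives 13 kept its call. Partners and regulators, 2 called, had 0 with all rows tested, the block or the macrophage covariate, 1 with the pancreas covariate, without both replicates 1 or without the 4 arrays, and 0 to 3 without 1 array. Signs turned for Cyp2b9 (0.0395), Cyp2c70 (0.00415) and Cyp3a13 (0.0199) with the macrophage covariate, Cyp2c70 without both replicates 1 (0.044), Cyp3a25 without the 4 arrays (-0.16), and Cyp2c29 by the mean of its probe sets (-0.00118) or the one of lowest p (-0.0264). Without 1 array the ranges crossed 0 for Cyp1a1 (-0.00107 to 0.0771), Cyp1b1 (-0.0497 to 0.0164), Cyp2b10 (-0.23 to 0.59), Cyp2b13 (-0.0434 to 0.00127), Cyp2c29 (-0.0097 to 0.0734) and Cyp3a13 (-0.0458 to 0.0475). The other 19 of the 28 named members kept their sign in every alternative run, and 23 were called in none. The causes were not tested.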
